A study of Mus musculus with 8 samples.

Results

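The 9 genes described here are myelin and oligodendrocyte genes chosen by symbol from the count table of the study: Mbp, Mobp, Mag, Mog, Cnp, Mal, Ermn, Olig1 and Olig2. All 9 were found among its 31894 genes, and all 9 passed the filter on low counts that left 13598 genes for testing. Mbp and Mobp, which encode proteins of compact myelin, were higher in the E-cadLO than in the E-cadHI cells of all 4 mice with breast cancer brain metastasis (BCBM), by 2.14 ± 0.28 and 2.19 ± 0.29 on the log2 scale (SE, 4 pairs of libraries, edgeR fit paired by mouse). Mog, Mal, Ermn and Olig1 lay on the same side in all 4 mice, and Cnp did not share the pattern. The levels of Mbp and Mobp differed more between mice than between the groups. An edgeR test that ignores the mouse called 0 of the 13598 genes, and so none of the 9. In the paired fit, neither Mbp nor Mobp passed without mouse 67 or without mouse 70, where 0 and 2 of all tested genes were called higher. All 8 microglia, 5 of 8 neuron and 5 of 8 astrocyte markers were also higher in all 4 mice, beside 16.7% of all tested genes.

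The study sequenced mRNA of tumor cells sorted from the brain metastases of 4 female FVB mice, labelled wild type and numbered 57, 58, 67 and 70, with 1 E-cadHI and 1 E-cadLO library per mouse. E-cadHI cells had high and E-cadLO cells low fluorescence of E-cad-mCFP, a fusion of the epithelial adhesion protein E-cadherin with a cyan fluorescent protein. The tumors of both groups grew after intracranial injection of organoid cells that came from mammary tumors of the PyMT E-cad-mCFP mouse, a breast cancer model driven by polyoma middle-T antigen, and that had been enriched by serial transplantation in the brain. All 8 libraries therefore derive from 1 organoid model. The study checked the purity of its sorting on E-cadHI cells and gives an upper limit for potential contamination of the sorted fraction with other cells. It also imaged sorted cells of both groups. Libraries of normal brain were not analysed here. Total counts were 14922074, 13006189, 13437544 and 11876177 in the E-cadHI libraries of mice 57, 58, 67 and 70, and 11325146, 9102781, 14313787 and 15769200 in their E-cadLO libraries.

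Oligodendrocytes wrap axons of the brain with myelin, a stack of membrane that insulates the axon. Myelin basic protein holds the cytoplasmic faces of these membranes together, and its mRNA is carried into the myelin sheath and translated there. Olig1 and Olig2 are basic helix-loop-helix transcription factors of the oligodendrocyte lineage, and Sox10 and Myrf act with them on myelin genes.

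E-cadherin itself was examined first, since it defines the groups. Cdh1 was at 114, 132, 93.4 and 108 normalized CPM (the count scaled by the library total, after TMM scaling, edgeR's correction for library composition) in the E-cadHI libraries of mice 57, 58, 67 and 70, and at 71.1, 181, 84.2 and 59.0 in the E-cadLO libraries. The groups overlapped, and Cdh1 was lower in the E-cadLO library of every mouse but 58. Its log2 fold change, E-cadLO over E-cadHI, was -0.17 ± 0.33 (SE, edgeR quasi-likelihood test with Benjamini-Hochberg adjustment over all genes tested, adjusted p = 0.809). In the edgeR fit paired by mouse it was -0.31 ± 0.23 (SE, adjusted p = 0.482). The study, by contrast, counts Cdh1 among the differentially expressed genes of its E-cadLO gene set and also measured it by RT-qPCR. Sorting used the protein's fluorescence, which the mRNA level does not measure. The E-cadLO library of mouse 57 stood apart in 8 fibroblast markers, with a summed level of 1275 normalized CPM (most abundant gene Col1a1) against at most 35.998 in the other 7 libraries, and in Epcam, an epithelial adhesion gene, with 288 against at least 789. In mouse 58, the predicted gene Gm42418 took 7.67% of the counts of the E-cadHI library and 14.4% of the E-cadLO library, against 2.23% to 3.93% in the other libraries. Counts of called genes are therefore also given without each mouse.

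Mbp lies on chromosome 18 (GRCm38, 82475146 to 82585637, forward strand). It was at 156, 833, 349.5 and 5144 normalized CPM in the E-cadHI libraries of mice 57, 58, 67 and 70 and at 825, 2371, 2198 and 20038 in their E-cadLO libraries, which gives 1621 ± 2366 and 6358 ± 9146 (mean ± SD, n = 4 each). Both libraries of mouse 70 were the highest of their group and both libraries of mouse 57 the lowest, so the groups overlapped, while within each mouse the E-cadLO library was higher. In the E-cadLO library of mouse 70, Mbp ranked 3 among all genes by count, with 1.83% of the counts (95% Wilson interval 1.82% to 1.83%, counting error only), and in the E-cadHI library of that mouse it ranked 13 with 0.494% (0.490% to 0.498%). The log2 ratio of E-cadLO to E-cadHI within a mouse (on normalized CPM + 0.5, which understates changes of low genes) was 2.40, 1.51, 2.65 and 1.96 in mice 57, 58, 67 and 70.

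Mobp, the gene of myelin-associated oligodendrocytic basic protein, lies on chromosome 9 (120149707 to 120181484, forward strand). Its normalized CPM were 65.04, 388, 237 and 2647 in the E-cadHI libraries and 354, 990.1, 1670 and 11633 in the E-cadLO libraries of mice 57, 58, 67 and 70. The order of mice was close to that of Mbp, and again the groups overlapped while every mouse had more in its E-cadLO library. The log2 ratios were 2.44, 1.35, 2.82 and 2.14. In the E-cadLO library of mouse 70, Mobp ranked 6 among all genes by count with 1.06% of the counts (95% Wilson interval 1.05% to 1.06%). A transcript on the same strand, Gm38642, shares 79 exonic bases with Mobp, and its reads there cannot be told apart from those of Mobp.

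Mag and Mog encode adhesion molecules of the immunoglobulin superfamily, Mag on the membrane that faces the axon and Mog on the outer surface of the sheath. Mag (chromosome 7, 30899176 to 30914873, reverse strand) was at 0.14, 17.8, 3.41 and 22.6 normalized CPM in E-cadHI and at 2.80, 15.4, 10.9 and 114 in E-cadLO libraries of mice 57, 58, 67 and 70. The E-cadHI library of mouse 57 held 2 counts of Mag. Mag was higher in the E-cadLO library of 3 mice and slightly lower in that of mouse 58, and only the E-cadLO library of mouse 70 exceeded all E-cadHI libraries. Mog (chromosome 17, 37010743 to 37023398, reverse strand) was at 0.28, 6.82, 4.23 and 29.6 in E-cadHI and at 1.92, 12.2, 15.6 and 148 in E-cadLO libraries. Mog was higher in the E-cadLO library of all 4 mice, with log2 ratios between 0.79 and 2.30, and the groups overlapped.

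Mal, a proteolipid of membrane trafficking in myelin, and Ermn, a cytoskeletal protein of mature oligodendrocytes, followed the same course. Mal (chromosome 2, 127633226 to 127656695, reverse strand) was at 1.95, 11.9, 2.75 and 45.1 normalized CPM in E-cadHI and at 3.54, 26.6, 22.1 and 190.3 in E-cadLO libraries of mice 57, 58, 67 and 70. Ermn (chromosome 2, 58045113 to 58052864, reverse strand) was at 0.56, 12.7, 3.86 and 32.2 in E-cadHI and at 6.05, 17.3, 23.0 and 171 in E-cadLO libraries. Both were higher in the E-cadLO library of every mouse, with groups that overlapped, and the smallest log2 ratio was 0.72 in mouse 57 for Mal and 0.43 in mouse 58 for Ermn. Ermn shares 237 exonic bases with Galnt5 on the opposite strand, and the sources used here do not say whether reads were counted by strand.

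Cnp, the gene of an enzyme of the cytoplasmic channels of myelin, behaved differently. Cnp (chromosome 11, 100574904 to 100591729, forward strand) was at 327, 283, 327 and 402 normalized CPM in E-cadHI and at 66.3, 264, 247 and 687 in E-cadLO libraries of mice 57, 58, 67 and 70. It was lower in the E-cadLO library of mice 57, 58 and 67 (log2 ratios -2.29, -0.10 and -0.40) and higher in that of mouse 70 (0.77). Its E-cadHI libraries differed by a factor of 1.42 from lowest to highest, whereas those of Mbp differed by a factor of 32.9 and those of Mobp by 40.4. Among the E-cadLO libraries these factors were 10.3 for Cnp, 24.3 for Mbp and 32.8 for Mobp. Cnp shares 154 exonic bases with Dnajc7 on the opposite strand.

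Of the transcription factors, Olig2 was the lowest of the 9 genes per kilobase of exon, with a median of 0.121 CPM per kb in E-cadHI and 1.37 in E-cadLO libraries. Olig1 (chromosome 16, 91269772 to 91271933, forward strand) was at 0.07, 6.13, 2.15 and 25.4 normalized CPM in E-cadHI and at 1.18, 27.2, 2.62 and 54.6 in E-cadLO libraries of mice 57, 58, 67 and 70. The E-cadHI library of mouse 57 held 1 count of Olig1, and the E-cadLO library was higher in all 4 mice, by little in mouse 67 (log2 ratio 0.23). Olig1 shares 157 exonic bases with the noncoding gene Gm15966 on the opposite strand. Olig2 (chromosome 16, 91225550 to 91228677, forward strand) had no count in either library of mouse 57, where the 3 counts that a count of 0 allows correspond to 0.201 CPM (E-cadHI) and 0.265 CPM (E-cadLO). In mice 58, 67 and 70 it was at 0.54, 0.07 and 2.98 normalized CPM in E-cadHI and at 4.87, 2.08 and 5.85 in E-cadLO libraries, from 1 to 84 counts, so that the E-cadLO library was higher in the 3 mice where it was detected.

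**Figure D1:**
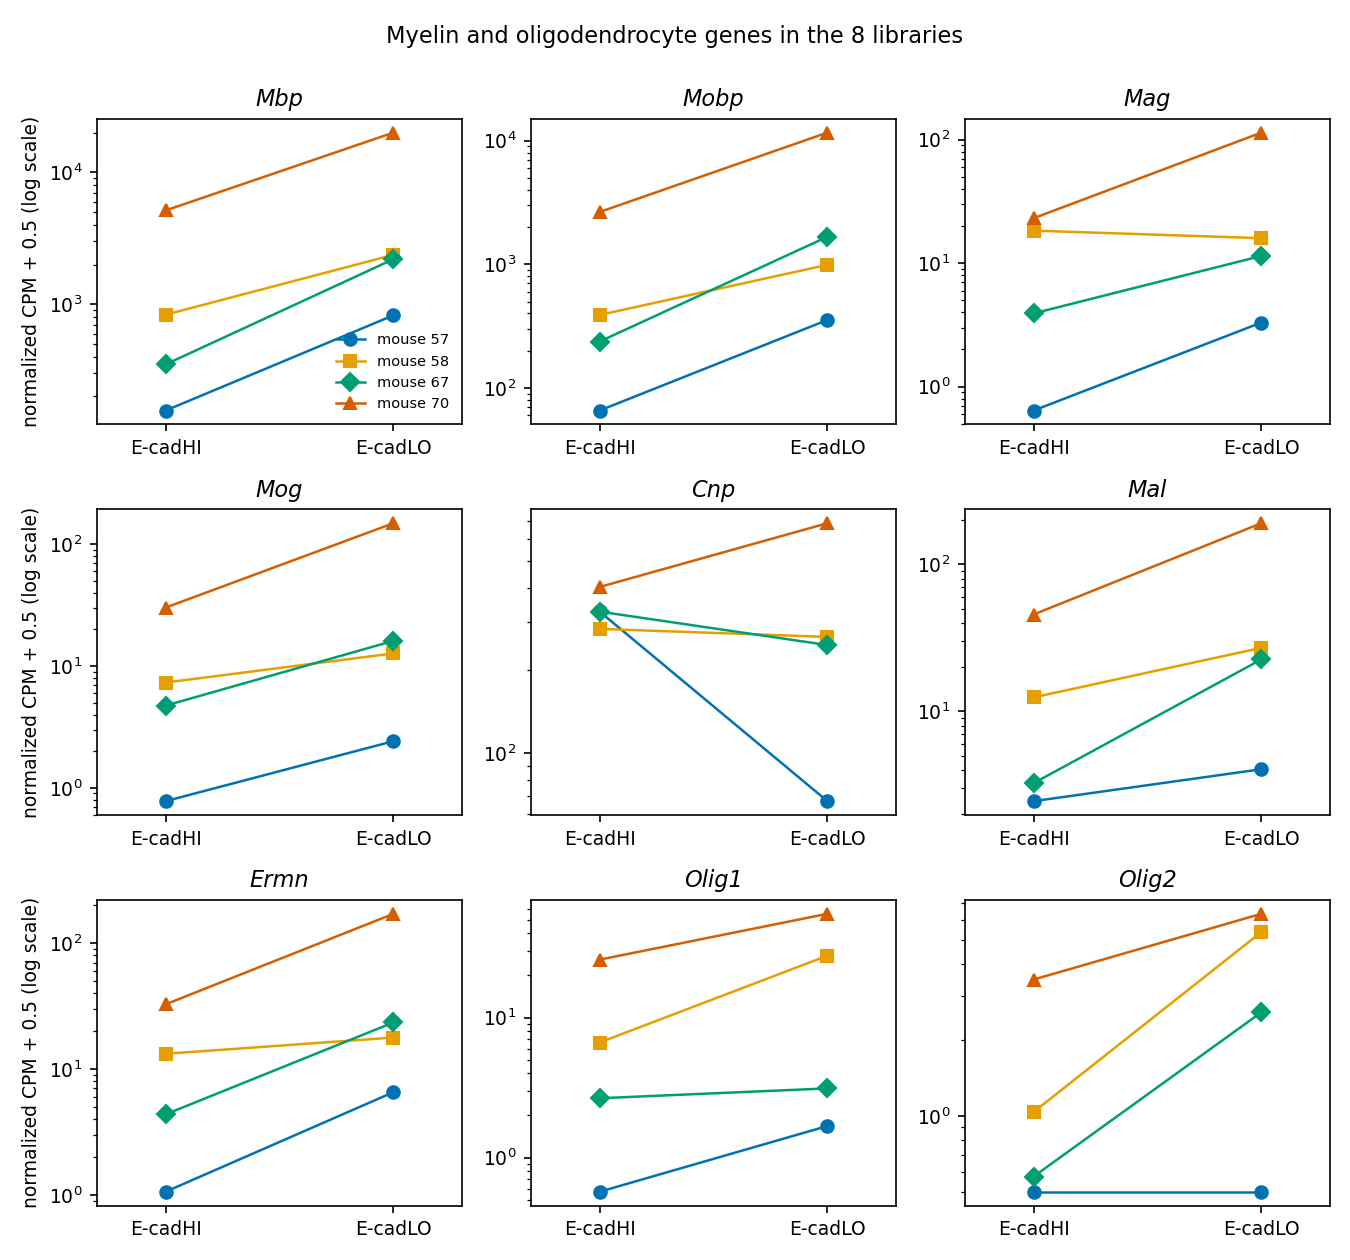
Normalized CPM + 0.5 (log axis) of each of the 9 genes in the E-cadHI and the E-cadLO library of each mouse; a line joins the 2 libraries of a mouse. Mbp lies at 156 and 825 in mouse 57 and at 5144 and 20038 in mouse 70, and the lines of Cnp run down in 3 of the 4 mice.

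**Figure D2:**
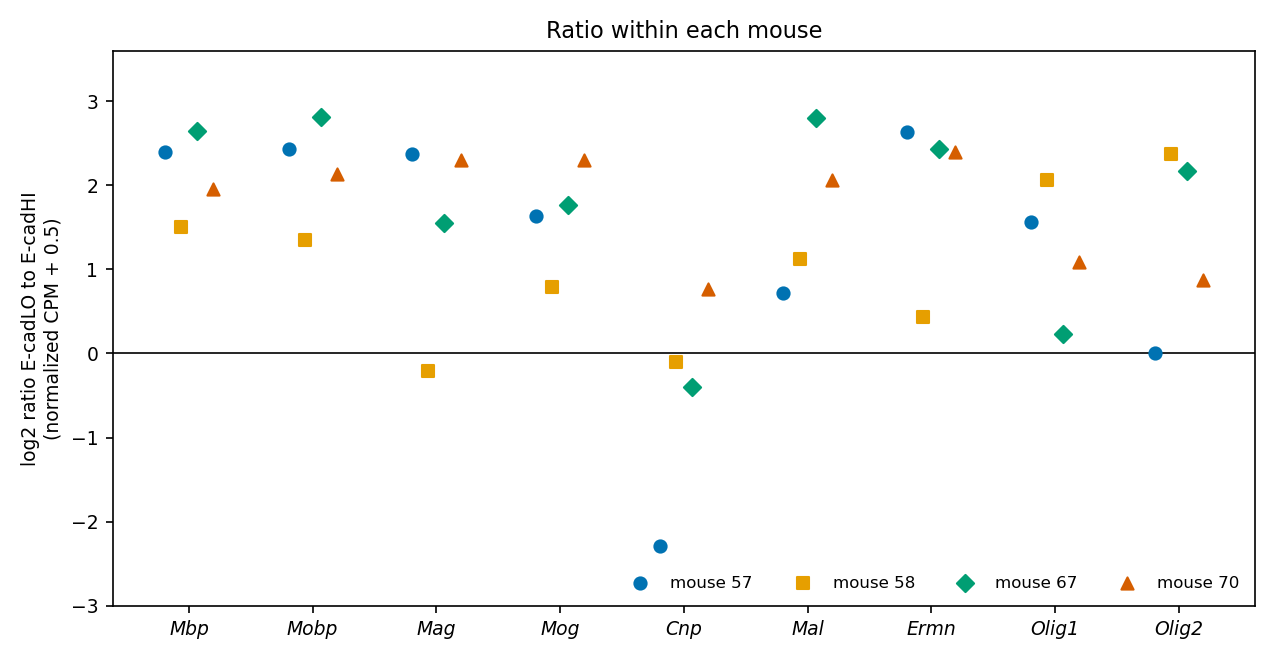
Log2 ratio of the E-cadLO to the E-cadHI library (normalized CPM + 0.5) for each gene, 1 point per mouse. Points of Mbp lie between 1.51 and 2.65, and those of Cnp between -2.29 and 0.77.

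The comparison of E-cadLO with E-cadHI cells was tested across all 13598 genes. Without regard to the mouse, edgeR's quasi-likelihood test called 0 genes at an adjusted p under 0.05 (0% of genes higher and 0% lower), while 1109 genes were higher and 790 lower at an unadjusted p under 0.05. None of the 9 genes passed at an adjusted p under 0.05, and none had an unadjusted p under 0.05, where 8.16% of all genes were higher at that level. DESeq2 without the mouse also called 0 of the 9 (against 2.63% of all genes higher). The log2 fold changes in this edgeR test were 1.97 ± 1.24 (SE) for Mbp (adjusted p = 0.466) and 2.14 ± 1.28 for Mobp (adjusted p = 0.453). They were 2.13 ± 1.36 for Mog, 1.98 ± 1.24 for Mal, 2.15 ± 1.21 for Ermn, 1.71 ± 1.29 for Mag, 1.35 ± 1.38 for Olig1 and 1.84 ± 1.51 for Olig2. Cnp was at -0.08 ± 0.54. The differences were thus within the spread between mice, which for Mbp reached a factor of 24.3 among E-cadLO libraries. None of the 9 genes had groups that did not overlap, where 3.88% of all genes lay wholly higher and 4.21% wholly lower in E-cadLO.

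With the mouse as a replicate block, since both libraries of a number come from the same animal, edgeR called 2 of the 9 genes higher in E-cadLO, where it called 0.728% of all genes higher (99 genes) and none lower. Mbp rose by 2.14 ± 0.28 (SE, adjusted p = 0.0311) and Mobp by 2.19 ± 0.29 (adjusted p = 0.0311) on the log2 scale in this edgeR fit. Mog had a log2 fold change of 1.84 ± 0.32 (edgeR adjusted p = 0.0560), Mal of 1.80 ± 0.35 (adjusted p = 0.0736) and Ermn of 2.11 ± 0.44 (adjusted p = 0.0857), and none of these passed. Olig1 (1.49 ± 0.47), Mag (1.67 ± 0.56), Olig2 (2.59 ± 0.90) and Cnp (-0.47 ± 0.45) did not pass either, with edgeR adjusted p of 0.177, 0.187, 0.199 and 0.576. At an unadjusted p under 0.05 the edgeR fit with the block had 8 of the 9 genes, all but Cnp, higher, beside 12.3% of all genes. DESeq2 with the block called 7 of the 9, all but Olig2 and Cnp, where it called 7.17% of all genes higher. The 2 edgeR calls depended on single mice, and DESeq2 was not run with a mouse left out. Without mouse 67 the edgeR adjusted p with the block was 0.293 and 0.287, without mouse 70 it was 0.126 and 0.136, and the log2 fold changes stayed between 1.97 and 2.22. In these fits edgeR called 0 of all genes without mouse 67 and 2 genes without mouse 70. Without mouse 58, Mobp passed (edgeR adjusted p = 0.0383) and Mbp did not (adjusted p = 0.0508), where 63 of 13647 tested genes were called higher.

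Within mice, 6 of the 9 genes were higher in the E-cadLO library of all 4 animals, where 16.7% of all tested genes were. The median log2 ratio of the 9 genes was 1.63, 1.12, 2.17 and 2.06 in mice 57, 58, 67 and 70, beside 0.01, 0.00, 0.01 and 0.06 for all tested genes. TMM scaling moved the ratios of mouse 57 by 0.32, and without it the medians of the 9 genes were 1.86, 1.04, 2.21 and 1.99. The median of mouse 57 is the ratio of Mog, from 4 counts in its E-cadHI library, and this ratio was 2.41 with 0.1 and 0.782 with 2 added to the CPM in place of 0.5. An exact sign-flip permutation test over the 4 mice cannot go below p = 0.125 (two-sided), which is the value of Mbp, Mobp, Mog, Mal, Ermn and Olig1. These are bulk libraries, in which fewer cells of a type and less RNA per cell cannot be told apart.

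**Figure D3:**
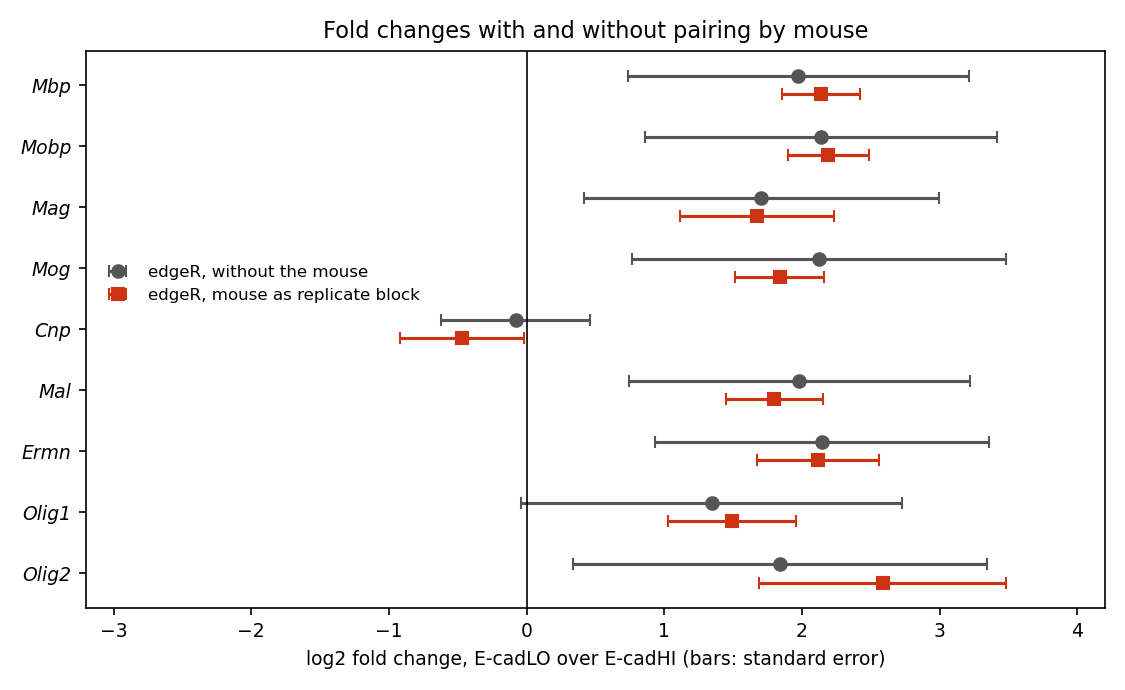
Log2 fold change of each gene, E-cadLO over E-cadHI, in edgeR without the mouse (circles) and with the mouse as a replicate block (squares); bars are standard errors. For Mbp the error was 1.24 without and 0.28 with the block, around fold changes of 1.97 and 2.14.

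The levels of the 9 genes relative to each other were compared per kilobase of exon. In every library Mbp was the higher of Mbp and Mobp, by a factor of 1.06 to 1.94 per kb, and this ratio varied far less than either gene's level. The union of exons of Mbp also holds those of its long Golli transcripts, so its level per kb is an underestimate for the myelin transcripts. Per kb, Mbp exceeded Mal by a factor of 22.9 to 76.4, Mog by 16.6 to 113, Ermn by 28.1 to 120.1 and Mag by 22.4 to 538, the last in the E-cadHI library of mouse 57 with its 2 Mag counts. Against Cnp, the level of Mbp per kb ran from 0.205 in the E-cadHI library of mouse 57 to 12.5 in the E-cadLO library of mouse 70, and in each mouse it was larger in the E-cadLO library. Together Mbp and Mobp made up 40.1% of the summed normalized CPM of the 9 genes in the E-cadHI library of mouse 57, where Cnp had the most counts of them, and up to 95.9% elsewhere.

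**Figure D4:**
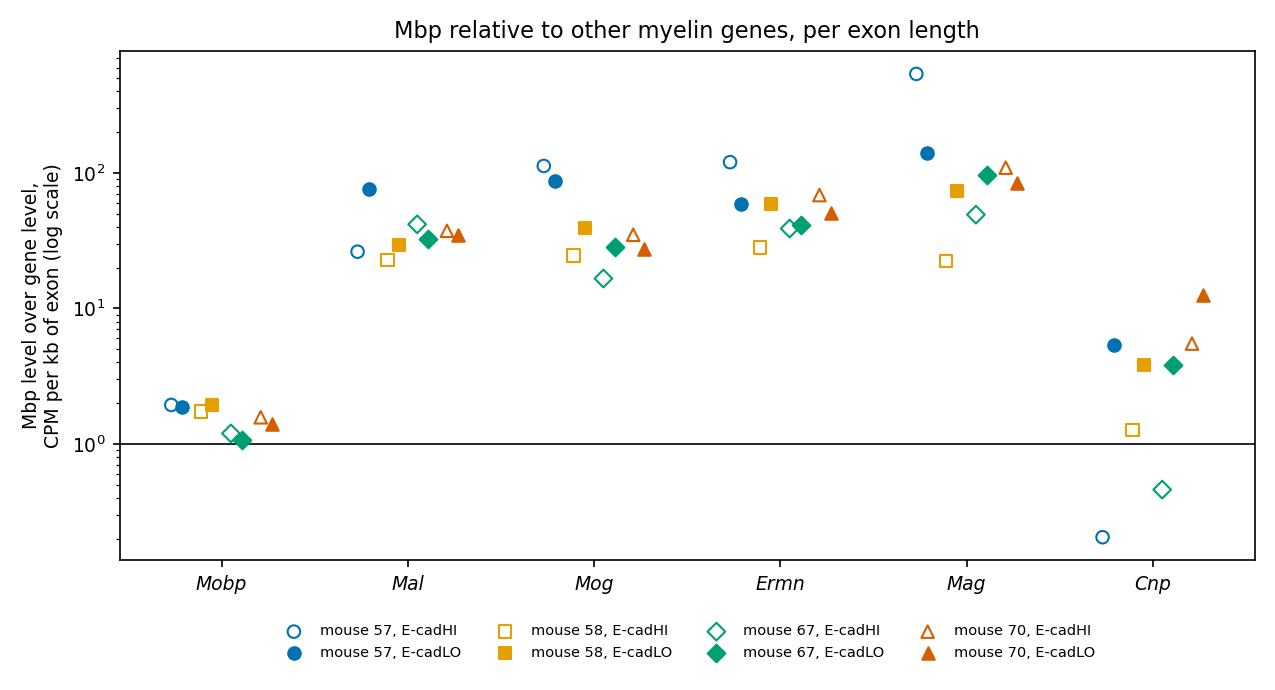
Level of Mbp divided by that of each other gene, in CPM per kb of exon (log axis), for each library; open symbols are E-cadHI and filled symbols E-cadLO libraries. The ratio to Mobp stays between 1.06 and 1.94, and the ratio to Cnp runs from 0.205 to 12.5.

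Across the 8 libraries, log2 normalized CPM + 0.5 of the 8 genes other than Cnp correlated with each other at Pearson's r of 0.837 to 0.990 (28 pairs, median 0.932), and Cnp with each of them at 0.417 to 0.575. These values describe 8 libraries that share mice, depth and the difference between groups. The 10 genes outside the 9 whose profile was most like the mean profile of the 9 were Sparcl1 (r = 0.997), Mt3, Fbxo2, Tmem191c, Ndrg2, Pllp, Gpm6b, Eif4e3, Nap1l5 and Timp4 (r = 0.992), and 503 of the 13589 other tested genes were above 0.9. Sparcl1, a secreted matrix protein made by astrocytes, Mt3, a metallothionein of the brain, and Ndrg2, which astrocytes express, are not myelin genes, while Pllp (plasmolipin) is a membrane protein of myelin. Sparcl1 ranged from 8.56 to 3879.9 normalized CPM and rose by 1.997 ± 0.26 (SE, edgeR with the replicate block, adjusted p = 0.0297).

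Of 14 other proteins of central myelin and its junctions, all were tested, and 7 were higher in the E-cadLO library of all 4 mice (16.7% of all genes were). edgeR with the block called 1 of them higher and none lower (0.728% of all genes higher), and DESeq2 with the block called 5 higher (7.17% of all genes). In edgeR with the block, 4 were called without mouse 57 (425 of 13905 tested genes higher) and 2 without mouse 58 (63 of 13647). None was called without mouse 67 or 70, where 0 and 2 of all tested genes were called higher. The median log2 fold change of the 14 in edgeR with the block was 1.64, beside 0.03 for all tested genes. Bcas1, an early marker of myelinating oligodendrocytes, was the one called: it was at 6.75, 39.5, 21.2 and 268 normalized CPM in E-cadHI and at 39.0, 112, 126 and 1092 in E-cadLO libraries of mice 57, 58, 67 and 70, and rose by 2.15 ± 0.22 (SE, edgeR with the block, adjusted p = 0.0239). Cldn11, the tight junction protein of myelin, had a log2 fold change of 1.75 ± 0.60 and Tspan2, a tetraspanin, of 0.19 ± 0.25, and neither passed (edgeR with the block, adjusted p = 0.195 and 0.692). DESeq2 with the block called Cldn11 (adjusted p = 0.0110) and not Tspan2 (adjusted p = 0.714).

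Among 8 tested genes of 10 for myelin lipids and oligodendrocyte metabolism, edgeR called none with or without the block, and their median log2 fold change with the block was 0.42. DESeq2 with the block called Enpp2 higher (adjusted p = 0.0383) and Trf lower (adjusted p = 0.0141), where it called 7.17% of all genes higher and 1.49% lower. Trf, the iron carrier transferrin, was at 578, 344, 619.9 and 553 normalized CPM in E-cadHI and at 106, 256, 352 and 335 in E-cadLO libraries, lower in all 4 mice (log2 fold change -1.08 ± 0.33, edgeR with the block, adjusted p = 0.175). Car2, carbonic anhydrase 2, was lower in the E-cadLO library of 3 mice (-0.51 ± 0.42, edgeR with the block, adjusted p = 0.512). Enpp2 (autotaxin) and Qdpr were higher in 3 mice each, with log2 fold changes of 2.71 ± 0.81 and 0.32 ± 0.37 (edgeR with the block, adjusted p = 0.164 and 0.648).

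The other lineage regulators were not called. Of 7 such transcription factors 5 were tested, and edgeR called none with or without the block. Sox10 was at 53.3, 81.7, 55.7 and 70.3 normalized CPM in E-cadHI and at 26.3, 72.6, 47.3 and 38.0 in E-cadLO libraries of mice 57, 58, 67 and 70. It was lower in the E-cadLO library of each mouse, by -0.57 ± 0.20 on the log2 scale (edgeR with the block, adjusted p = 0.202), and was present in libraries where Olig2 had no count. Myrf was at 3.55 normalized CPM or below in all 8 libraries, with a log2 fold change of 1.18 ± 0.77 (edgeR with the block, adjusted p = 0.405).

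Of 10 genes of oligodendrocyte progenitors, 9 were in the table and 6 were tested, and edgeR with the block called 1 higher (0.728% of all genes) and DESeq2 with the block 2 (7.17% of all genes). In edgeR with the block, 2 were called without mouse 57, beside 425 of 13905 tested genes. None was called without mouse 58, 67 or 70, where 63 of 13647, 0 and 2 of all tested genes were called higher. Bcan (brevican, a matrix proteoglycan that progenitors and astrocytes make) was at 0.28, 7.28, 1.34 and 17.9 normalized CPM in E-cadHI and at 0.66, 29.7, 6.24 and 55.006 in E-cadLO libraries, and rose by 1.85 ± 0.28 (SE, edgeR with the block, adjusted p = 0.0392). Pdgfra, the growth factor receptor of progenitors and also of fibroblasts, was between 0.91 and 5.70 in E-cadHI and between 5.64 and 12.2 in E-cadLO libraries, higher in all 4 mice. It did not pass in edgeR with the block (1.87 ± 0.51, adjusted p = 0.145) and was called by DESeq2 with the block (adjusted p = 0.00673). Of 6 genes of Schwann cells, which myelinate peripheral nerve, 4 were tested. edgeR called none of them with or without the block, and DESeq2 with the block called 1 higher, the transcription factor Egr2 (adjusted p = 0.0487). Pmp2, a protein of peripheral myelin, was at 0 in 6 of the 8 libraries and at no more than 1.01 normalized CPM in the others.

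Marker lists of other brain cells were measured beside the 9 genes. The summed normalized CPM of the 9 genes was 551, 1560.3, 929 and 8351 in E-cadHI and 1260.3, 3729, 4191 and 33041 in E-cadLO libraries of mice 57, 58, 67 and 70, which is 2.29, 2.39, 4.51 and 3.96 times as much in E-cadLO. For 8 microglia markers (none at 0 in any library) the sums were 30.9, 68.9, 89.2 and 201 in E-cadHI and 122, 150.4, 522 and 725 in E-cadLO libraries, a fold of 3.94, 2.18, 5.85 and 3.61. All 8 microglia markers were higher in E-cadLO in all 4 mice, beside 16.7% of all genes. Of the 8, edgeR with the block called 3 higher (0.728% of all genes) and DESeq2 with the block all 8 (7.17% of all genes).

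For 8 neuron markers (most abundant gene Snap25, a synaptic protein) the sums were 4.04, 56.9, 20.1 and 92.7 in E-cadHI and 24.7, 136, 131 and 369 in E-cadLO libraries, a fold of 6.12, 2.39, 6.49 and 3.98. In mouse 57, Slc17a7 was at 0 in both libraries and Stmn2 in the E-cadHI library, and edgeR with the block called 1 of the 8 neuron markers higher (0.728% of all genes) and DESeq2 with the block 6 (7.17% of all genes). For 8 astrocyte markers (most abundant gene Aldoc, none at 0) the sums were 1145, 1147, 1308 and 3549 in E-cadHI and 718, 1459, 1972 and 9845 in E-cadLO libraries, a fold of 0.627, 1.27, 1.51 and 2.77. In mouse 57, Aldoc was at 1004 in the E-cadHI and 123 in the E-cadLO library, while 6 of the 8 astrocyte markers were higher in E-cadLO with a median log2 ratio of 1.58 over the 8. edgeR with the block called 3 astrocyte markers higher (0.728% of all genes) and DESeq2 with the block 6 (7.17% of all genes). Gfap, the intermediate filament of astrocytes, rose by 2.004 ± 0.30 (SE, edgeR with the block, adjusted p = 0.0360).

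Mouse 58 had the lowest summed fold of the microglia and neuron lists and the lowest median ratio of the 9 genes. By summed fold, the 9 genes and the astrocyte list were lowest in mouse 57 (2.29 and 0.627). In that mouse, Cnp made up 59.4% of the sum of the 9 genes in the E-cadHI library and 5.26% in the E-cadLO library. There 7 of the 9 genes were higher in the E-cadLO library, and Mbp was 5.28 times as high. Mouse 70 had the highest sum of the 9 genes and of the microglia, neuron and astrocyte lists in both groups. Of 8 endothelial markers (most abundant gene Flt1) 6 were tested, none was called by edgeR or DESeq2 with or without the block, and the summed fold was 1.09, 1.83, 1.25 and 1.53. The 10 epithelial tumor markers (most abundant gene Krt18) had 0.549, 1.24, 1.41 and 0.886 times the summed level in the E-cadLO library of mice 57, 58, 67 and 70, and edgeR with the block called none of them. Leaving out 1 mouse changed the calls of edgeR with the block in these lists. Without mouse 57 it called 8 microglia, 5 astrocyte, 3 neuron and 1 epithelial tumor marker (Cldn4) higher, beside 425 of 13905 tested genes. Without mouse 58 it called 3, 3, 0 and 0, beside 63 of 13647 tested genes. Without mouse 67 or 70 it called none of these markers, beside 0 and 2 of all tested genes. The study describes its gates as sorting tumor cells of both groups. The part of microglia, neurons and astrocytes, and of oligodendrocytes among the sorted cells, in the values of the 9 genes was not tested.

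**Figure D5:**
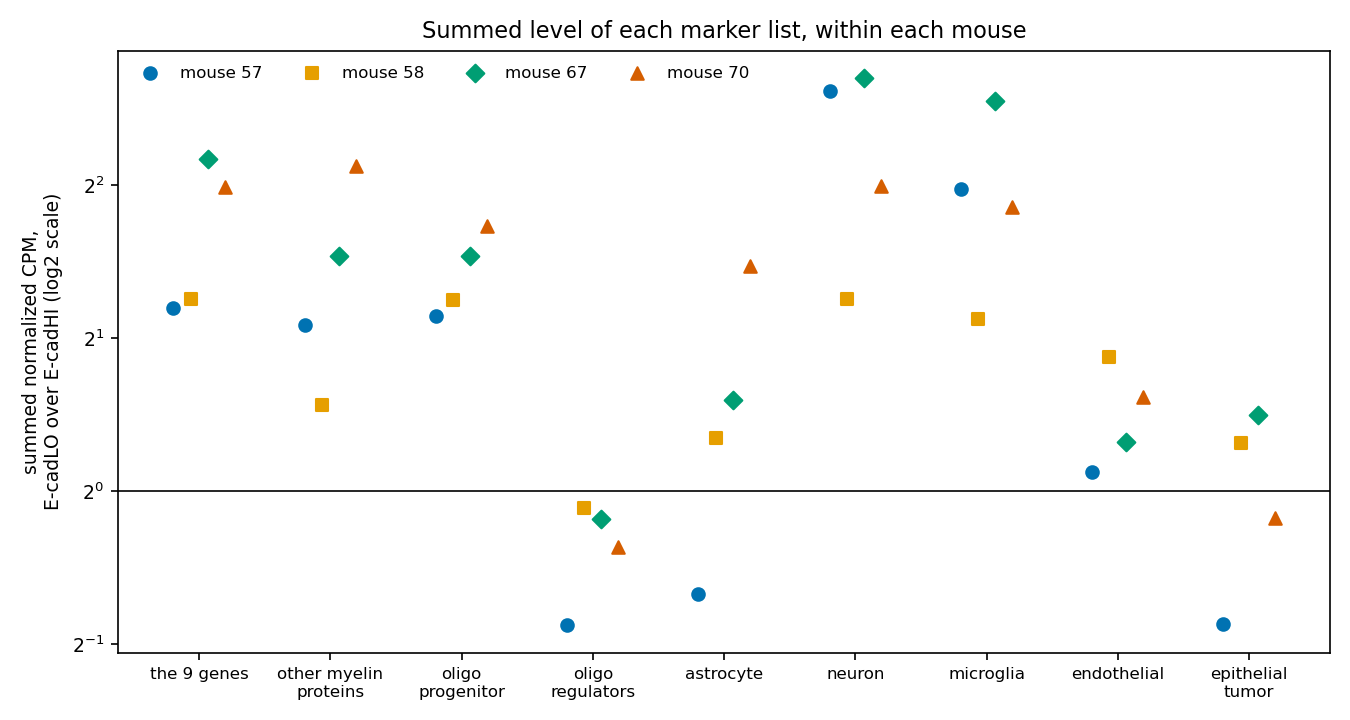
Summed normalized CPM of each marker list in the E-cadLO library divided by that in the E-cadHI library of the same mouse (log2 axis), 1 point per mouse. The 9 genes lie between 2.29 and 4.51, the microglia markers between 2.18 and 5.85, and the epithelial tumor markers between 0.549 and 1.41. Cnp made up 59.4% of the sum of the 9 genes in the E-cadHI library of mouse 57.

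The sequences before the start sites of Mobp, Mog and Cnp are shown because Mobp and Mog varied together across the libraries and Cnp did not. They are the bases from 250 to 51 before a RefSeq transcript start (GRCm38.p6), given 5′ to 3′ on the gene's strand, at chr9:120149492-120149691 (forward) for Mobp, chr17:37023449-37023648 (reverse) for Mog and chr11:100574689-100574888 (forward) for Cnp. Promoters of 7 of the 9 genes were in the RefSeq table, and Olig1 and Mbp had no entry. Capitals mark matches on either strand to CTGGNAC (the core of the Myrf motif), AACAAT (a core of Sox motifs), CANNTG (the E-box of basic helix-loop-helix factors) or AACAAAG, a Sox-type motif of the other usual form that was added after the sequences were seen.
Mobp: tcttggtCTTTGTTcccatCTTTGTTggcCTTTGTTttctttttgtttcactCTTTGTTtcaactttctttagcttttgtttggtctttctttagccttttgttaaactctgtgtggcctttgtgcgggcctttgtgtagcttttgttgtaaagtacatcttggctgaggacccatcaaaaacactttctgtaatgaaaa
Mog: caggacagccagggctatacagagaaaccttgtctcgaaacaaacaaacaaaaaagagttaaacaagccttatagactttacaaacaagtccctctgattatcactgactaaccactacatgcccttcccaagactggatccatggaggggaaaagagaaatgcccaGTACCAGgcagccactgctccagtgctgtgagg
Cnp: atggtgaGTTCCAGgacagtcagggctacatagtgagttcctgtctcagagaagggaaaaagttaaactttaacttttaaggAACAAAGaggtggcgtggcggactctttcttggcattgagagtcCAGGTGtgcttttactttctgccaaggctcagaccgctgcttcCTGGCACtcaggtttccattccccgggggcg
The stretch of Mobp holds 4 matches to AACAAAG, all on the opposite strand (capitals read CTTTGTT), within 52 bases, and none of the other motifs. Of the 32851 promoter windows of 300 bases in the table, 5.85% hold AACAAAG at least once, and that of Mobp is the only 1 with 4. Because this motif was added after the sequences were seen, that count describes the Mobp window and is no test. The stretch of Mog holds 1 match to CTGGNAC, and that of Cnp holds 2 to CTGGNAC, 1 to CANNTG and 1 to AACAAAG. Matches to CTGGNAC were found in windows of 3 of the 7 genes (Mag, Mog and Cnp), to AACAAT in 1 (Olig2) and to CANNTG in 2 (Mag and Cnp), against 19.3%, 10.7% and 72.3% of all windows, where Mag has 3 windows, some of them overlapping. A match to letters is not a bound site, and binding was not measured.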

How the data were processed

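E-cadHI and E-cadLO cells sorted from BCBM of 4 mice gave 8 mRNA libraries. Single reads were mapped by the authors to GRCm38 with HISAT2 2.1.0, and they deposited whole-number counts per gene, which their methods credit to Icount and the submitters' processing notes to HTSeq, without normalization; use of strand and treatment of multiply mapped reads are not given in the sources used here. All 8 count columns were used. Entries that carry no gene identifier, 365 in number, did not enter (5794 to 11331 counts per library). Library totals ran from 9102781 to 15769200, and 3 counts correspond to 0.190 to 0.330 CPM.

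edgeR 4.0.16 (R 4.3.3) was run with TMM scaling, filterByExpr by group and its quasi-likelihood test on the 8 libraries; p-values of 13598 genes were adjusted by Benjamini-Hochberg and called under 0.05. DESeq2 1.42.0, which the study's methods name, other filters and scalings, and leaving out mice or libraries were alternatives. The main design has no block. Mouse numbers in the labels mark libraries of the same animal, and deviations from the group means correlated at 0.381, 0.248, 0.272 and 0.692 in mice 57, 58, 67 and 70, so a second fit held a replicate block of mice. P-values of the fit without a block treat the 8 libraries as independent. Those of the fit with the block measure the spread of the difference within mice over 4 animals. All animals carried 1 organoid model. No pair of libraries agreed within sampling noise.

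Exon lengths (union of exons) and overlaps came from GENCODE M21, where 31749 of the 31894 genes were found by identifier, and promoter windows (250 bases before to 50 after a start) from RefSeq. Motifs were searched on both strands. The 9 genes, the other lists, the motifs and the tests were chosen with earlier results of these data known, and the lists were written by hand. Named genes are the 9, the up to 4 most abundant genes of each other list, genes of oligodendrocyte lists with an adjusted p under 0.05, and the 10 genes of most similar profile; Cdh1, Cldn4, Pmp2, Slc17a7, Stmn2 and Gm42418 were named after their values were seen, as checks, and the counts of other cells' markers without each mouse were added after the values were seen. Some genes that this rule names are not reported here. The steps were tested on simulated data with 200 of 13598 genes changed 4-fold. On data drawn without differences between mice, edgeR without a block recovered 62.5% of them with 8.09% false calls. On data drawn with differences between mice, edgeR with the block recovered 62.5% with 3.85% false calls. The first setting does not show how the test without a block behaves on libraries paired by mouse. Python 3.11.15, pandas 2.3.3 and matplotlib 3.10.9 made tables and figures.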

Additional observations from a re-analysis of the deposited data

Results flagged for a closer look

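In 9 of 27 groups of 4 values (the normalized CPM of each of the 9 genes in E-cadHI and in E-cadLO libraries, and the log2 ratios of each gene within mice), 1 value lay far from the other 3 relative to the range of the group. A chance rate of about 1 in 20 groups, or 1.35 of 27, was taken for normalized CPM and log2 ratios alike. Normalized CPM were skewed across mice and the genes are not independent of each other, so 9 against 1.35 does not measure an excess. Of the marked values, 6 belong to the E-cadLO library of mouse 70: 20038 normalized CPM for Mbp, 11633 for Mobp, 190 for Mal, 171 for Ermn, 148 for Mog and 114 for Mag. The E-cadHI library of the same mouse was marked for Mbp, with 5144 normalized CPM, and for Mobp, with 2647. Within mice, the log2 ratio of Ermn was marked in mouse 58, where it was 0.429.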

How the results depend on the processing

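The number of genes called higher in E-cadLO moved from 0 without the block to 99 with the replicate block, 386 with DESeq2, 1032 with DESeq2 and the replicate block, 23 without a filter and 3 with at least 10 counts in every library, which left 4 of the 9 genes, and the number called lower from 0 to 43 with DESeq2 and 215 with DESeq2 and the replicate block. Of the 9 genes, 2 were called with the replicate block and 7 with DESeq2 and the block. When mice or libraries were left out in turn, from 0 to 425 genes were called higher (from 0 to 13 when only 1 library was left out), from 0 to 24 lower and from 0 to 5 of the 9 genes. With the block, 5 of the 9 (Mbp, Mobp, Mog, Mal and Ermn) and 425 and 24 genes higher and lower were called without mouse 57, 3 (Mobp, Mog and Ermn) and 63 and 3 genes without mouse 58, none without mouse 67, and 2 genes but none of the 9 without mouse 70. The cause was not tested.

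The median log2 fold change of the 9 genes, 1.97 in the unpaired test, was 0.195 without the E-cadLO library of mouse 70 and 3.44 without its E-cadHI library. Without the E-cadLO library of mouse 70 the log2 fold change of Mbp was 0.178 and that of Mobp 0.295, and without its E-cadHI library they were 3.82 and 3.98. Without the block, leaving out mice or libraries gave -0.161 to 2.32 for Mag and -0.0247 to 3.54 for Mog, both negative without the E-cadLO library of mouse 70, and -0.789 to 0.219 for Cnp. With the block, leaving out mice gave 1.27 to 2.40 for Mag, 1.70 to 2.23 for Mog and -0.896 to 0.0675 for Cnp. Cnp turned positive without mouse 57 (0.21, and 0.0675 with the replicate block), without the E-cadHI library of mouse 70 (0.00437) and without the E-cadLO library of mouse 57 (0.219) or 67 (0.0175). Of the 200 fold changes of single genes under other settings, 176 kept their direction and their side of the threshold, 17 passed it in addition and 7 reversed. Adding 0.1 or 2 in place of 0.5 to the CPM moved 4 within-mouse log2 ratios by more than the SD of the gene's ratio over the 4 mice, in mouse 57 those of Mog, Mag (3.6 and 1.17) and Olig1 (2.92 and 0.62), and in mouse 67 that of Olig2 (3.65 and 0.976). Olig2 had at most 84 counts in a library and none in mouse 57, so counting error is large for its values.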
